A study of Mus musculus with 5 samples.

Results

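Complement RNAs that macrophages can make were examined in CD11b+ cells taken from Matrigel plugs holding myeloma cells. The genes were C1qa, C1qb, C1qc and C2 of the classical pathway, C3 where the pathways meet, Cfb and Cfp of the alternative pathway, and the inhibitor gene Serping1. They were found through the platform annotation by gene symbol, which gave 12 probe sets for 7 of the 8 genes, out of 45037 probe sets without the control sets. None of the 12 carried several symbols. C3 had no probe set under its symbol in that annotation and was not analysed here. A probe set is a group of short oligonucleotides on an Affymetrix array that together report on a transcript.

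Complement is a chain of blood and tissue proteins that tags targets, draws in leukocytes and can make pores in membranes. C1q binds antibody or damaged surfaces and starts the classical pathway through the proteases C1r and C1s, the latter of which cuts C4 and C2. Factor B (Cfb) supplies the protease of the alternative pathway, and properdin (Cfp) holds that enzyme together, while the C1 inhibitor (Serping1) blocks C1r and C1s. The liver makes most circulating complement, but C1q and properdin come largely from myeloid cells, and interferon-gamma is known to raise factor B in macrophages.

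Tumoricidal macrophages came from plugs with MOPC315, a mouse myeloma line whose antibody carries the idiotype that the transgenic T-cell receptor recognises (3 arrays). Control macrophages, labelled non-tumoricidal, came from plugs with a variant of MOPC315 that had lost this antigen (2 arrays). All hosts were SCID mice on the Balb/c background with the idiotype-specific T-cell receptor transgene, aged 7 to 12 weeks, so the control mice carried the transgene too. SCID mice without such a transgene have hardly any lymphocytes of their own. They keep natural killer and myeloid cells, some of which also bear CD11b. T-cell markers on these arrays are given below. Plugs were subcutaneous, cells were sorted on day 8, and the labels call the samples of a group biological replicates. Whether a sample was 1 mouse or a pool is not given in the sources used here.

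Values below are signals after each array was scaled to a common median of 18, so a signal near 18 is that of a middling probe set. The BioC spike-in control probe sets separated the arrays into batches A and B. Batch A held control replicate 1 with tumoricidal replicates 1 and 2, and batch B held the other array of each group, tumoricidal replicate 3 and control replicate 2. Before scaling the array medians differed by up to 1.47 times, and control replicate 1 took the strongest correction, a factor of 0.797. All 8 macrophage markers looked at (Adgre1, Csf1r, Cd68, Mertk, Fcgr1, Cd14, Lyz2 and Aif1) were well above the common median on every array, the lowest signal being the 284 of Mertk in control replicate 1. Their summed signal was 22836 to 33901 in tumoricidal and 21066 to 26774 in control samples. These sums overlapped, but 3 of the 8 (Csf1r, Fcgr1 and Aif1) were higher in every tumoricidal array, and the rest overlapped. Markers of other cells were present as well. Those of natural killer cells stood apart: 3 markers summed to 729, 399.9 and 478 in tumoricidal and 99.8 and 78.9 in control arrays, and each of the 3 (Klrk1, Ncr1 and Eomes) was higher in every tumoricidal array. The 6 eosinophil, mast cell and basophil markers summed to 140 to 183 in tumoricidal and 23.3 to 70.4 in control samples. Of the 6, 3 (Siglecf, Mcpt8 and Kit) were apart on the higher side. Epx, Prg2, Mcpt8 and Cpa3 each fell on some array under 4.79, the floor to which low values were raised. The 2 measured markers of inflammatory monocytes summed to 7386 to 10478 in tumoricidal and 5156 to 6133 in control samples, with 1 of the 2 (Plac8) apart. Beside these counts, 17.0% of all named genes were apart on the higher side and 6.51% on the lower. The 3 endothelial markers summed to 92.4 to 135 in tumoricidal and 94.6 to 120.5 in control samples. The 3 hepatocyte markers summed to 13.4 to 30.4 in tumoricidal and 5.73 to 13.7 in control samples. The plasma cell and myeloma sum is given at the end, and the remaining sums beside the genes they bear on. In such bulk samples fewer cells of a type and less RNA per cell cannot be told apart. With so few arrays the precision is limited throughout.

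Of the measured members, Cfb (factor B) had the only probe set whose groups did not overlap. Its signal averaged 1941 ± 437 (SD, n = 3) in tumoricidal and 613.7 ± 220 (SD, n = 2) in control macrophages, while the C1q chains, C2, properdin and the C1 inhibitor overlapped between the groups. The Cfb difference still did not pass limma's test across all probe sets. At an adjusted p under 0.05, 0 of the 7 measured member genes passed, against 0.0644% of the 17074 named genes. Over all probe sets tested, 0.0341% passed as higher and 0.0171% as lower. At an unadjusted p under 0.05, Cfb alone did, on the higher side, as did 6.12% of named genes, while 2.79% did on the lower side. Complete separation with the tumoricidal arrays above was seen for 1 of 7 members and for 17.0% of named genes, and with the tumoricidal arrays below for 0 of 7 and 6.51%. Within both batches the tumoricidal arrays exceeded the control array for 5 of 7 members (C1qa, C1qc, C2, Cfb and Cfp) and for 33.2% of named genes. The log2 difference was positive for 6 of 7 members and for 63.0% of named genes. The median log2 difference, tumoricidal minus control, was 0.29 for the 4 classical genes, 1.04 for the 2 alternative pathway genes, 0.56 for the inhibitor and 0.13 for all named genes. These medians rested on single arrays: the classical one was -0.33 without control replicate 1 and 0.85 without control replicate 2, the alternative one 0.62 and 1.46 in the same order, and the inhibitor's 0.078 without tumoricidal replicate 3 and 1.061 without tumoricidal replicate 2.

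**Figure D1:**
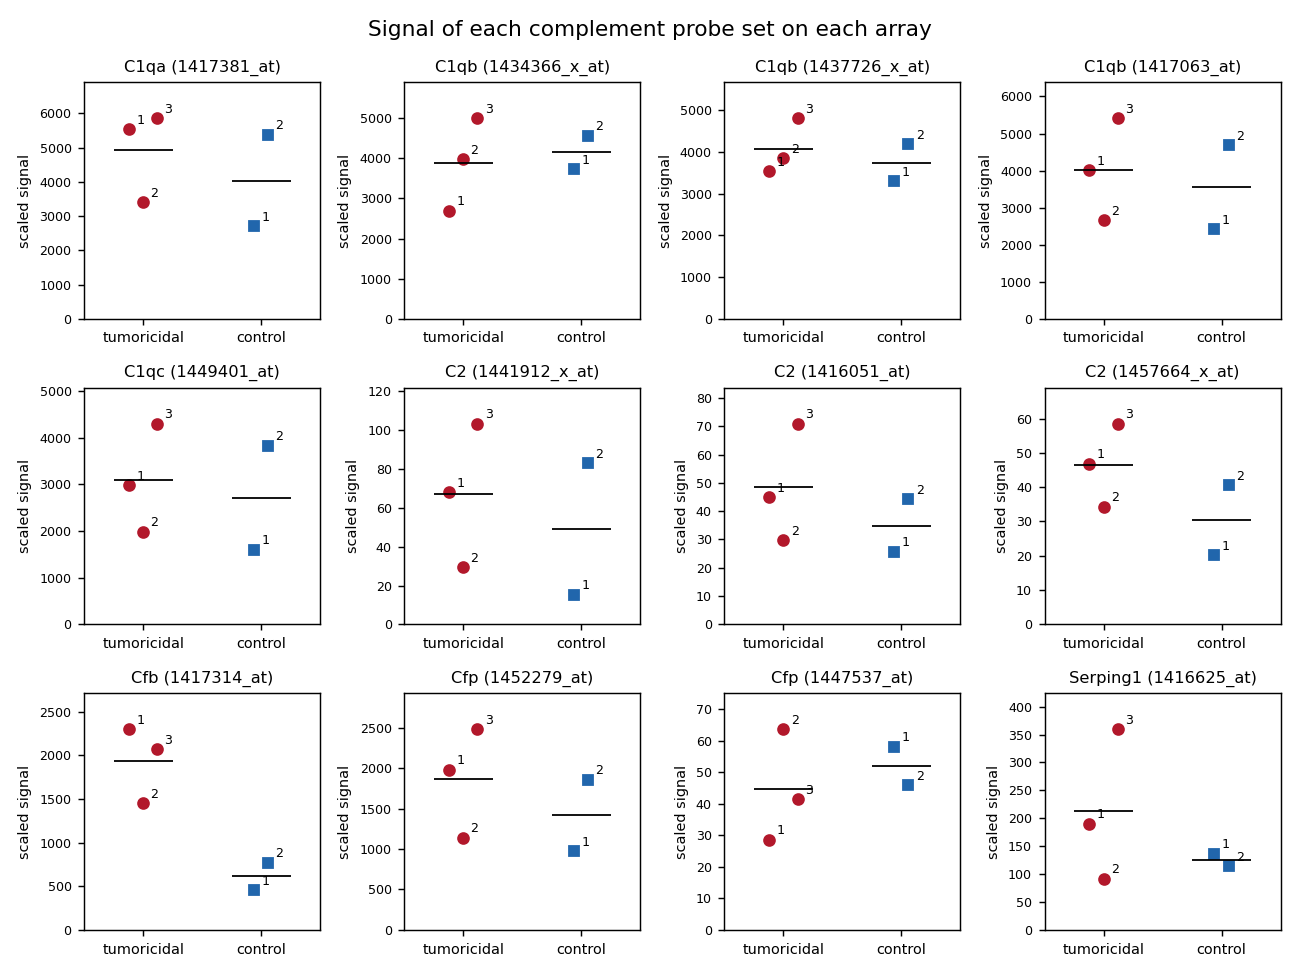
Scaled signal (linear axis from 0) of the 12 complement probe sets, with 1 point per array, the replicate number beside it and a bar at the group mean; tumoricidal arrays are circles and control arrays squares. For Cfb the lowest tumoricidal array (1454) lies above the highest control array (769.5), and for the other 11 probe sets the groups overlap.

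C1q is a bundle of A, B and C chains, each from its own gene, and the 3 genes are direct neighbours on chromosome 4 (C1qb, C1qc, C1qa in that order) in RefSeq's GRCm38.p6 gene table. C1qa gave 5537, 3416 and 5856 in tumoricidal replicates 1 to 3, against 2699 and 5384 in control replicates 1 and 2. Tumoricidal replicate 2 and control replicate 1 were low and the other 3 arrays were high, so the spread within each group was wider than the gap between the means. The log2 difference was 0.33 (SE 0.42, 95% interval -0.70 to 1.37, limma adjusted p = 0.859). C1qc gave 2975, 1979.7 and 4292 in tumoricidal and 1596 and 3827 in control arrays. It repeated the order of C1qa in the control arrays and had the same low tumoricidal array (log2 difference 0.25, SE 0.51, 95% interval -1.01 to 1.501, limma adjusted p = 0.909).

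C1qb had 3 probe sets, which did not tell the same story. The probe set 1417063_at gave 4012, 2668 and 5408 in tumoricidal and 2425 and 4683 in control arrays. That is the pattern of the other 2 chains (log2 difference 0.20, SE 0.44). The probe set with the highest mean, 1434366_x_at, gave 2698, 3981 and 4991 in tumoricidal and 3725 and 4562 in control arrays. Here tumoricidal replicate 1 was the lowest array, and the log2 difference was -0.13 (SE 0.34, 95% interval -0.96 to 0.71, limma adjusted p = 0.930). The remaining one, 1437726_x_at, ran only from 3287 to 4797 over all 5 arrays (log2 difference 0.12, SE 0.27). The ending x_at marks probe sets in which some probes may also match other transcripts. None of the 3 differed beyond the spread between arrays.

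The direction of the C1q chains rested on how the arrays were scaled and on control replicate 1. With quantile normalization the log2 difference was -0.0079 for C1qa and -0.093 for C1qc, and without control replicate 1 it was -0.16 for C1qa and -0.38 for C1qc. Within batch A it was 0.69 for C1qa and 0.60 for C1qc, and within batch B 0.12 and 0.17 for the same genes.

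C2, the classical pathway's counterpart of factor B, lies next to Cfb on chromosome 17. Its signals were low, though above the floor on all arrays. The probe set with the highest mean, 1441912_x_at, gave 68.0, 29.5 and 103 in tumoricidal and 15.4 and 83 in control arrays, a 6.71-fold range over the 5 arrays. High and low arrays were the same as for C1q, and the groups overlapped (log2 difference 0.73, SE 0.85, 95% interval -1.39 to 2.84, limma adjusted p = 0.857). The other 2 probe sets, 1416051_at and 1457664_x_at, had log2 differences of 0.44 (SE 0.46) and 0.67 (SE 0.41), and their groups overlapped too. Control replicate 1 decided the sign: without it the 1441912_x_at difference was -0.49, and without control replicate 2 it was 1.94. The within-batch values were 1.54 in A and 0.31 in B.

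Factor B is the zymogen that factor D cuts to give the alternative pathway's convertase. Cfb had signals of 2298, 1454 and 2071 in tumoricidal replicates 1 to 3, against 457.8 and 769.5 in control replicates 1 and 2. Every tumoricidal array exceeded both control arrays, and the lowest of them was tumoricidal replicate 2, which was low for C1q as well. The log2 difference was 1.68 (SE 0.35, 95% interval 0.81 to 2.56), a 3.21-fold higher level, with an unadjusted p of 0.00354 and a limma adjusted p of 0.286. By that unadjusted p, Cfb ranked 273 among 17074 named genes. Inside batch A its difference was 1.997 and inside batch B 1.43. A fit with batch as a block gave 1.75 (limma adjusted p = 0.3004). Over the alternatives tried, its lowest value was 1.31 (control replicate 1 left out) and its highest 2.06 (control replicate 2 left out). The Cfb adjusted p lay between 0.0811 and 0.909 over them. The natural killer, monocyte and granulocyte marker sums given above were higher in the tumoricidal arrays, as Cfb was, and their part in the Cfb signal was not tested.

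Properdin is stored in granules by neutrophils and made by monocytes and macrophages. The Cfp probe set with the higher mean, 1452279_at, gave 1984, 1141 and 2482 in tumoricidal and 972.6 and 1859 in control arrays. The groups overlapped, with the same low arrays as C1q (log2 difference 0.40, SE 0.46, 95% interval -0.73 to 1.54, limma adjusted p = 0.856). A weaker probe set, 1447537_at, had the opposite sign: 28.6, 63.5 and 41.4 in tumoricidal and 58.1 and 45.8 in control arrays (log2 difference -0.29, SE 0.39). In batch A the 1452279_at difference was 0.63 and in batch B 0.42, but it was -0.065 without control replicate 1. The 7 neutrophil markers summed to 9655 to 11072 in tumoricidal and 4311 to 7136 in control samples. Of the 7, 4 (S100a8, S100a9, Cxcr2 and Ngp) were apart on the higher side, beside 17.0% of all named genes. For Ngp the margin was narrow, with 71.5 in the lowest tumoricidal and 71.2 in the highest control array. Csf3r, Camp and Mpo overlapped, Mpo with a log2 difference of -0.29. The part of neutrophils in the Cfp signal was not tested.

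Serping1 encodes the serine protease inhibitor that stops C1r and C1s, and many cell types including fibroblasts make it. It gave 190.0, 91.9 and 359 in tumoricidal and 136.8 and 114.6 in control arrays. Tumoricidal replicate 3 was far above and tumoricidal replicate 2 below both control arrays, so the groups overlapped (log2 difference 0.56, SE 0.58, 95% interval -0.88 to 1.995, limma adjusted p = 0.853). Without tumoricidal replicate 3 the difference was 0.08. In batch A it was -0.050, and in batch B, which holds that replicate, 1.65. The 6 fibroblast markers summed to 3044, 1158 and 4077 over the tumoricidal arrays, against 3157 and 1833 over the control arrays. Their highest and lowest arrays, tumoricidal replicates 3 and 2, were those of Serping1, and their part in its signal was not tested.

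A ratio taken within an array does not depend on that array's scaling factor. Cfb was therefore set against C1q, as log2 Cfb minus the mean log2 of C1qa, C1qb and C1qc. Since each probe set has its own efficiency, only the difference of this quantity between groups can be read. It was -0.62, -1.04 and -1.27 on the tumoricidal arrays, against -2.46 and -2.56 on the control arrays. The difference of the ratio was 1.53 on the log2 scale, or 2.89-fold, with every tumoricidal array above both control arrays. A two-sided exact permutation test gave p = 0.1, the smallest value that the 10 possible arrangements of the arrays allow. In batch A it was 1.63 and in batch B 1.29. With C1qb 1417063_at alone below the line it was 1.48. The planned ratio of C3 to C1q could not be formed, so no adjustment over both was made.

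**Figure D2:**
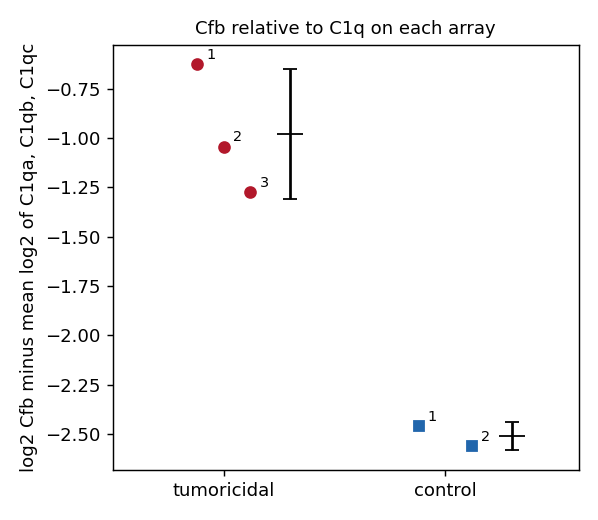
Log2 Cfb minus the mean log2 of the C1q chains on each array (circles tumoricidal, squares control, replicate numbers beside them; black bars give the mean and SD). The tumoricidal arrays lie between -1.27 and -0.62 and the control arrays between -2.56 and -2.46.

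The classical genes and properdin varied together from array to array, across the group boundary. Over the 5 arrays, Pearson's r of log2 signals was 0.957 between C1qa and C1qb 1417063_at, 0.995 between that probe set and C1qc, 0.978 between C1qa and Cfp 1452279_at, and 0.989 between C1qa and C2. Cfb followed them less closely, with r = 0.672 against C1qa and 0.671 against Cfp. For Serping1 against C1qa r was 0.572, and for C1qb 1434366_x_at against C1qa it was 0.106. These are descriptions over 5 points that share arrays and scaling. The macrophage markers compared differed in which of these genes they followed. Cd68, a lysosomal protein, had r = 0.972 with C1qb 1417063_at and 0.357 with Cfb. The receptor gene Csf1r had 0.522 with C1qb 1417063_at and 0.955 with Cfb, and Adgre1 had 0.87 and 0.78 in the same order. Tumoricidal replicate 2, low for C1q and Cfp, had a summed signal of 812 over 4 T-cell markers, where tumoricidal replicates 1 and 3 had 68.2 and 61.5 and control arrays 66.6 and 32.0. Their part in the lower signals there was not tested.

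**Figure D3:**
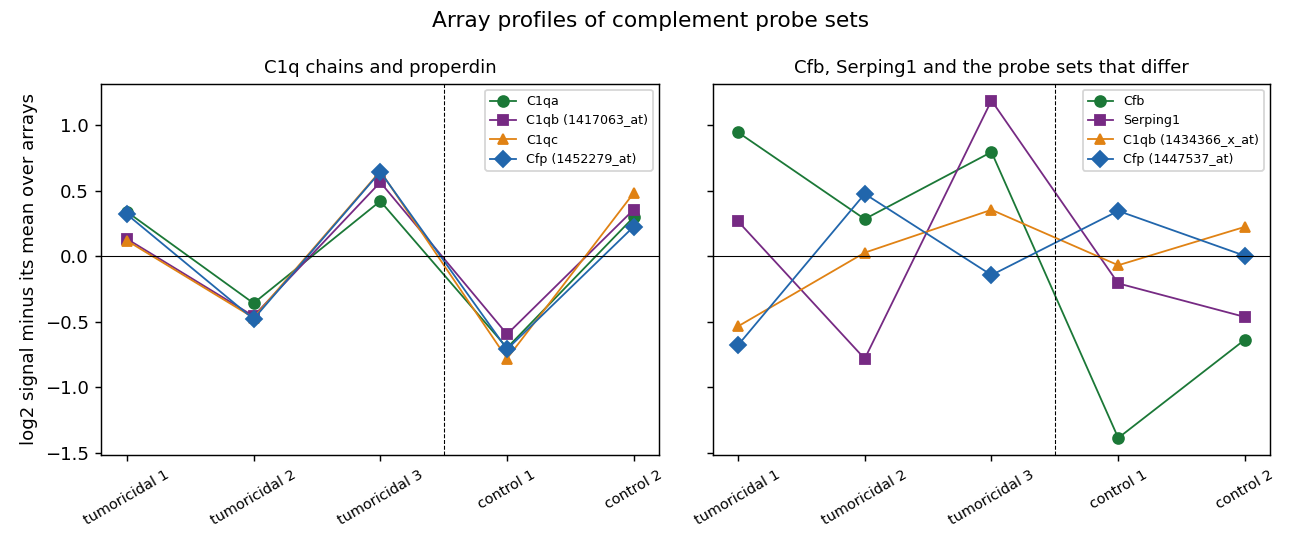
Log2 signal of each probe set minus its own mean over the 5 arrays, with tumoricidal arrays left of the dashed line and control arrays right of it; lines only join the points of a probe set. C1qa, C1qb 1417063_at, C1qc and Cfp 1452279_at dip together in tumoricidal replicate 2 and control replicate 1, while Cfb is high in all 3 tumoricidal arrays.

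The promoters of C1qb, C1qc and Cfp are shown because these were the measured members with a matched promoter sequence. Sequences were matched for 4 of the 8 genes, C3 among them, and not for C1qa, C2, Cfb or Serping1, whose promoters were not searched. Those shown come from RefSeq's GRCm38.p6 annotation, as 250 bases before to 50 bases after the start of transcription. Capitals mark the letters GAGGAA, a core that ETS factors such as the macrophage factor PU.1 can bind, on either strand (TTCCTC where it lies on the other strand).
C1qb, minus strand, chr4:136886151-136886450: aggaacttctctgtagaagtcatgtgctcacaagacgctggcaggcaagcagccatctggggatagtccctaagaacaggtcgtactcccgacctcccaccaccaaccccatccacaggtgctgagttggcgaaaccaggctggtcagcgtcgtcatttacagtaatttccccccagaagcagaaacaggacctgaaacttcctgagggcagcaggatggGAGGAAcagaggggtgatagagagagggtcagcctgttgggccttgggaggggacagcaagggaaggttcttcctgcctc
C1qc, minus strand, chr4:136892865-136893164: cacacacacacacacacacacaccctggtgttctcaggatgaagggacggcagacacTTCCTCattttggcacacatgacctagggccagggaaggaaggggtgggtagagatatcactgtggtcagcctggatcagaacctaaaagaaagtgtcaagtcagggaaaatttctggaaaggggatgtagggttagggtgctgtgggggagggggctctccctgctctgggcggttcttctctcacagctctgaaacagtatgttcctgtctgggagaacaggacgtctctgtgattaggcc
Cfp, minus strand, chrX:20931506-20931805: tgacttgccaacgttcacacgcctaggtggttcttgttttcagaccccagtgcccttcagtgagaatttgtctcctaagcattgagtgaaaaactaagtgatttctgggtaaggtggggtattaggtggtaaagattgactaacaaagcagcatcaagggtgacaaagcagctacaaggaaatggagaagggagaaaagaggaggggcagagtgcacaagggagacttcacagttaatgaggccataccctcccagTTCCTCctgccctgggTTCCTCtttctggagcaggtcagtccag
GAGGAA was found 1 time in C1qb, 1 time in C1qc and 2 times in Cfp, and 28.3% of all 32851 promoter windows hold it. The interferon-gamma-activated site TTCNNNGAA and the core of the interferon-stimulated response element, searched on both strands, were in none of the 3 windows. They occur in 8.30% and 3.44% of all windows. No overlap between motifs arose, and a match describes these letters only.

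Genes with the array pattern most like that of Cfb and C1qa were sought among 2729 other named genes above the median level and with a range of at least 1 on the log2 scale. For Cfb they were Vamp5, Pcca and Rhbdf2, with Pearson's r of 0.9999, 0.9996 and 0.9993 over 5 arrays. For C1qa they were Slc39a7, a zinc transporter gene, Psmd8, a proteasome subunit gene, and Tbc1d10a, with r of 0.999, 0.997 and 0.997. With so few arrays an r over 0.95 was common, reached by 310 of these genes with Cfb (11.4%) and by 174 with C1qa (6.38%). No share was counted at the higher r of the genes named.

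Of 41 further complement genes listed by role, 32 had a named probe set that could be tested. None passed limma's adjusted p under 0.05 in either direction, where 0.0527% of all named genes passed as higher and 0.0117% as lower. At an unadjusted p under 0.05, 3 were higher (C1ra, C1s1 and Itgax) and 2 lower (Cd93 and Vsig4), beside 6.12% and 2.79% of all named genes. The groups did not overlap for 5 on the higher side (C1ra, C1s1, Itgax, Itgb2 and Calr) and for 3 on the lower (Cd93, Vsig4 and the dim Vtn), where 17.0% and 6.51% of all named genes did so. The median log2 difference of the 32 was 0.11, beside 0.13 for all named genes. In 15 of the 32, Vtn among them, every array stayed under a signal of 36. They enter these counts and the median, but no difference is given for any of them alone.

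**Figure D4:**
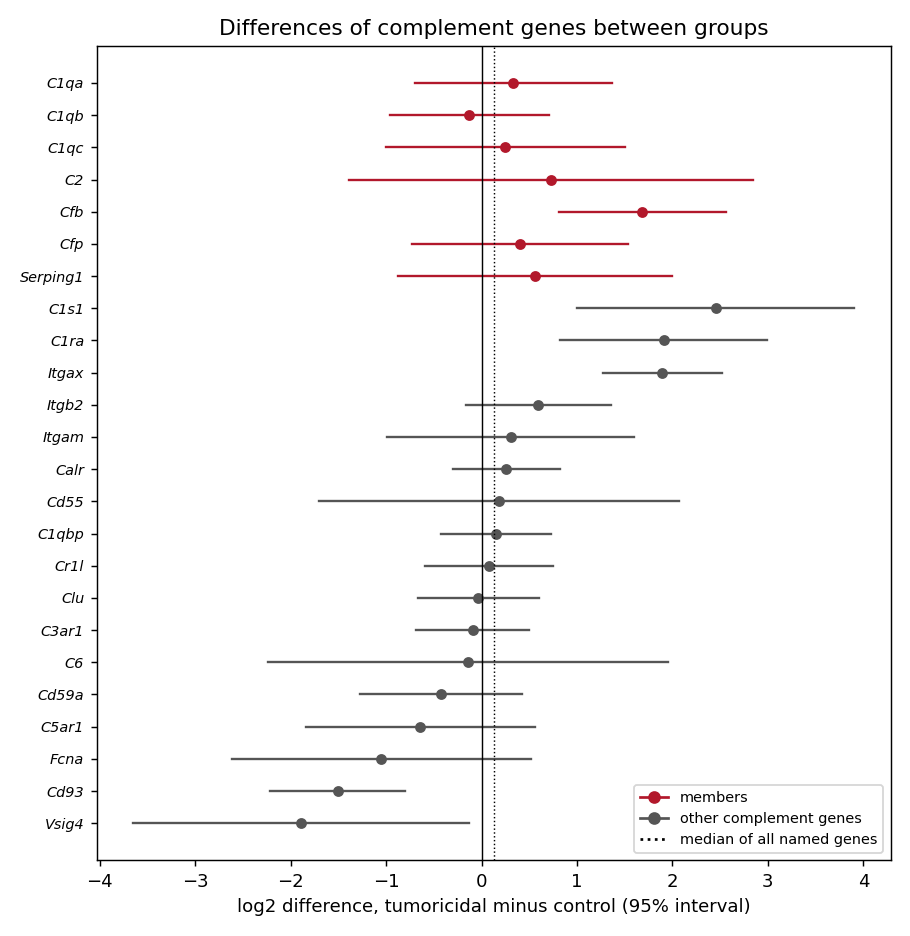
Log2 difference, tumoricidal minus control, with its 95% interval from limma for the 7 measured members (red, in order of pathway) and for the other complement genes that reached a signal of 36 on some array (grey, from highest to lowest); the dotted line is the median of all named genes, 0.13. The interval of Cfb (0.81 to 2.56) lies above 0, and those of the other 6 members span it.

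The genes of the proteases that C1q carries, C1ra and C1s1, had larger log2 differences than the C1q chains, although the gap between them was not tested. C1ra gave 362, 338 and 707 in tumoricidal and 90.6 and 153 in control arrays, without overlap (log2 difference 1.91, SE 0.44, limma adjusted p = 0.327). C1s1 gave 173, 133 and 495 in tumoricidal and 40.0 and 42.1 in control arrays, again without overlap (log2 difference 2.45, SE 0.59, limma adjusted p = 0.351). Both were highest in tumoricidal replicate 3, as was Serping1, which encodes their inhibitor. The ending s_at of the C1s1 probe set marks probes that match several transcripts, so signal from a near-identical copy such as C1s2 cannot be set aside. Within batches A and B the difference was 1.95 and 2.21 for C1ra and 1.92 and 3.56 for C1s1. Without tumoricidal replicate 3 it was 1.89 for C1s1. Fibroblasts are a known source of both proteases. Their marker sum, given above, overlapped between groups and was highest in tumoricidal replicate 3, as both proteases were, while the natural killer sum was higher in every tumoricidal array. The part of these cells in the C1ra and C1s1 signals was not tested.

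Of the lectin pathway, which starts from sugar-binding proteins, ficolin A (Fcna), a macrophage lectin in mice, gave 529, 389 and 1033 in tumoricidal and 698 and 2190 in control arrays. Control replicate 2 was far above the rest (log2 difference -1.05, SE 0.63, limma adjusted p = 0.788), and without it the Fcna difference was -0.23, against -1.88 without control replicate 1. Fcnb, Masp1, Masp2, Mbl1 and Mbl2 stayed under 36 on every array. Among fluid-phase regulators Cfi, C4bp and Vtn did so too, and Clu ran from 27.1 to 36.1 in tumoricidal and from 31.0 to 35.4 in control arrays (log2 difference -0.03). So did the terminal, pore-forming components Hc, C8a, C8b, C8g and C9. The exception was C6, with 157, 83.1 and 376 in tumoricidal and 91.0 and 387 in control arrays (log2 difference -0.14, SE 0.85), and its groups overlapped.

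Membrane regulators protect a cell from its own complement. Cr1l, the rodent regulator known as Crry, gave 456, 374 and 471 in tumoricidal and 349 and 481 in control arrays (log2 difference 0.08, SE 0.27, 95% interval -0.60 to 0.75). Cd55, which speeds the decay of convertases, ran from 40.0 to 106 in tumoricidal and from 24.3 to 117 in control arrays (log2 difference 0.18, SE 0.76). Cd59a, which blocks pore assembly, ran from 29.6 to 57.3 and from 50.3 to 58.1 in the same groups (log2 difference -0.43, SE 0.34). On these probe sets all 3 overlapped between groups. A weaker Cr1l probe set, 1430131_at, gave 23.5, 49.6 and 25.8 in tumoricidal and 51.5 and 51.3 in control arrays. Its groups did not overlap, with the opposite sign (log2 difference -0.72, SE 0.39, limma adjusted p = 0.763). Another dim one, 1438920_x_at, overlapped (log2 difference 0.19, SE 0.29). Cd46 and Cd55b stayed under 36 throughout.

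Complement receptors had log2 differences of both signs. Itgax, the alpha chain of complement receptor 4 and also a marker of dendritic cells, gave 711, 578 and 784 in tumoricidal and 189 and 179.9 in control arrays. The groups were far apart (log2 difference 1.89, SE 0.25, 95% interval 1.27 to 2.52, limma adjusted p = 0.127), and the call changed with the processing: the adjusted p was 0.0219 with only probe sets above the median, 0.0354 with an intensity trend and 0.0431 with log2(signal + 16). Itgam, the alpha chain of complement receptor 3 and the CD11b used for the sort, gave 865, 466 and 1135 in tumoricidal and 417 and 931 in control arrays. It overlapped (log2 difference 0.31, SE 0.52). Itgb2, the beta chain that both receptors share, gave 3634, 2595 and 3949 in tumoricidal and 1885 and 2590 in control arrays. Its groups were apart only by a narrow margin (log2 difference 0.60, SE 0.31, limma adjusted p = 0.751). With quantile normalization the Itgb2 difference was 0.23. The 4 dendritic cell markers summed to 121 to 164 in tumoricidal and 91.8 to 133 in control samples. The sums of the natural killer, neutrophil and monocyte lists given above were higher in every tumoricidal array than in either control array, as Itgax was. The part of all these cells in the Itgax signal was not tested.

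Cd93, a surface protein once described as a C1q receptor, gave 448, 478 and 685 in tumoricidal and 1458 and 1544 in control arrays, without overlap (log2 difference -1.51, SE 0.28, 95% interval -2.21 to -0.80, limma adjusted p = 0.235). Vsig4, a receptor of resident macrophages for C3 fragments, gave 60.5, 37.2 and 72.1 in tumoricidal and 91.5 and 448.5 in control arrays (log2 difference -1.89, SE 0.71, limma adjusted p = 0.587). Without control replicate 2 the Vsig4 difference was -0.75. Receptors for the released peptides had smaller differences and overlapped: C3ar1 had -0.09 (SE 0.24) and C5ar1 -0.64 (SE 0.49) on the log2 scale. The C5ar1 difference was -1.17 without control replicate 1 and -0.11 without control replicate 2. Calr and C1qbp, both known to bind C1q, had 0.26 (SE 0.23) and 0.15 (SE 0.23).

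**Figure D5:**
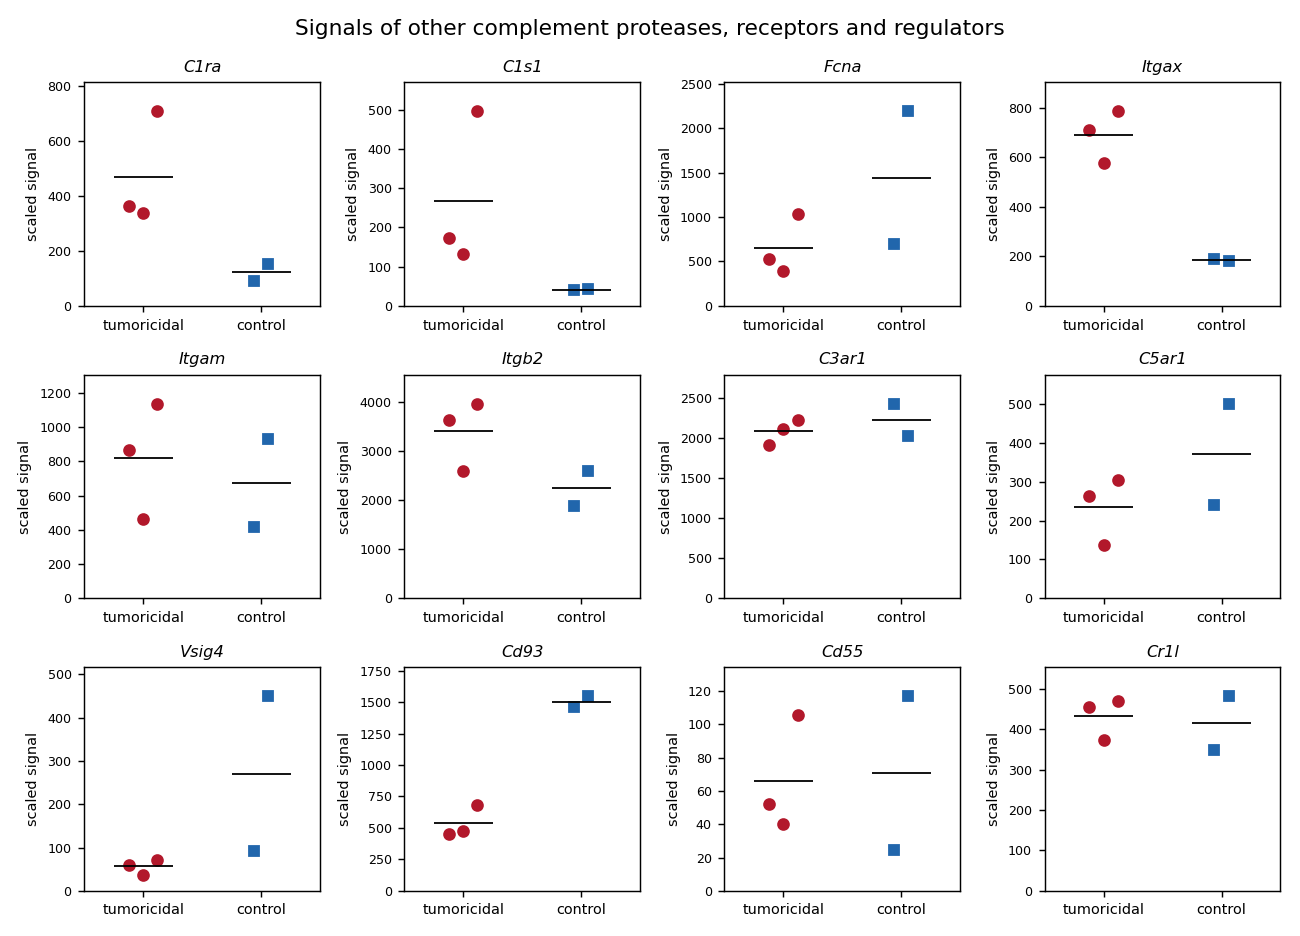
Scaled signal (linear axis from 0) of 12 further complement genes on each array, with a bar at the group mean; circles are tumoricidal and squares control. C1ra, C1s1, Itgax and, by a narrow margin, Itgb2 lie higher in every tumoricidal array, Cd93 and Vsig4 lower in every tumoricidal array, and the other 6 overlap.

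For scale, 3 interferon-responsive genes were measured on the same arrays. The chemokine gene Cxcl9 had a log2 difference of 6.02 (SE 0.31), the GTPase gene Gbp2 3.82 (SE 0.27) and the transcription factor gene Irf1 2.49 (SE 0.45), all larger than the 1.68 of Cfb.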

How the data were processed

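Per the labels, biotin-labelled cRNA was prepared from 6 µg RNA following Affymetrix. The authors deposited linear signal intensity per probe set for 5 arrays. The sources used here do not give their software or scaling. Control probe sets (64) were dropped, arrays scaled to the median of the array medians (18), values under the pooled 25th percentile (4.79) raised to it, and log2 taken. The 3984 probe sets at that floor on all arrays were left out, and 41053 were fitted with limma 3.58.1 in R 4.3.3 (lmFit and eBayes, two-sided, Benjamini-Hochberg adjusted p under 0.05, no covariate). The fit was tested on simulated data. Symbols came from the platform annotation: 34945 probe sets had 1, 932 several and 9160 none. The 12 member symbols equalled those of their Entrez identifiers in RefSeq's GRCm38.p6 table. A gene's value is its single-symbol probe set with the highest mean log2. Of the 41 further complement genes, 9 were not analysed here.

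All members and the further complement genes were named by rule, whatever their result, and the 3 most similar genes were added for Cfb and C1qa. Members and lists were chosen with earlier results of these data known. Batches came from the BioC spike-in probe sets. Alternatives were other scalings and low-signal rules, an intensity trend, blocks for replicate number and batch, and each array left out. Figures used Python 3.11.15 and matplotlib 3.10.9.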

Additional observations from a re-analysis of the deposited data

How the results depend on the processing

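Over the alternatives run, 0 members passed the threshold under any of them, Cfb and the ratio of Cfb to C1q stayed positive, and the medians by pathway role moved by less than the spread between replicates, which is wide. The classical median (0.29) turned to -0.051 with quantile normalization and to -0.33 without control replicate 1. The difference of the ratio was 1.29 within batch B. Over the remaining alternatives it lay between 1.35 without tumoricidal replicate 1 and 1.81 with C1qb 1434366_x_at alone. That probe set did not follow the other C1q chains. Over all probe sets, where limma called 14 higher and 7 lower, log2(signal + 16) called 59 and 12, probe sets above the median alone 168 and 25, and an intensity trend 58 higher. No floor, the replicate block and the batch block called 0 each way, as did each array left out; the cause was not tested. Of the further complement genes 1, Itgax, passed with log2(signal + 16), with probe sets above the median and with the trend.

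Signs also turned for genes, none of which had passed. With the deposited scaling Cd55 was -0.048, Cr1l -0.15 and C1qbp -0.077. With quantile normalization C1qa was -0.0079, C1qc -0.093, Cr1l -0.18, Calr -0.045 and C1qbp -0.22. With the replicate block C1qc was -0.026 and Cd55 -0.22, and with the batch block C6 was 0.17. Within batch A Serping1 was -0.050 and C6 0.33, and within batch B C1qb was 0.13, Clu 0.16, Cd55 -0.14, Cr1l -0.030 and C3ar1 0.14. The mean of all C1qb probe sets was 0.062. With arrays left out, C1qa ran from -0.16 to 0.83, C1qb from -0.33 to 0.11, C1qc from -0.38 to 0.88, C2 from -0.49 to 1.94, Cfp from -0.065 to 0.87, C6 from -1.19 to 0.90, Cd55 from -0.95 to 1.31, Clu from -0.13 to 0.095, Cr1l from -0.16 to 0.31, C3ar1 from -0.22 to 0.038 and Itgam from -0.27 to 0.88.

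Whether replicate numbers pair the samples was not settled. Deviations from the group means correlated by 0.0235 for number 1 and -0.237 for number 2. With only 2 control arrays their deviations mirror each other, so these values are not independent and cannot exclude pairing. With replicate number as a block the Cfb difference was 1.62 (limma adjusted p = 0.909). The alternative with C1qb 1417063_at alone was chosen after seeing the data. The ratio of C3 to C1q was not run.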

Other observations

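A probe set annotated to C4a and C4b together, and therefore named for neither, gave 1867, 1479.6 and 3041 in tumoricidal and 1519 and 3045 in control arrays. The groups overlapped (log2 difference -0.08, SE 0.45, limma adjusted p = 0.971).

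Cd93 had 5 probe sets, and the log2 difference was negative on each, from -1.52 (1419589_at) to -0.62 (1441907_s_at). In 4 of the 5 every tumoricidal array lay below both control arrays. C3ar1 had 3 probe sets that disagreed in sign, with 0.34 (SE 0.45), 0.10 (SE 0.33) and -0.09 (SE 0.24). The 7 marker genes of plasma cells and myeloma summed to 489 to 1581 in tumoricidal and 3175 to 3566 in control samples. Of the 7, 5 lay apart on the lower side, beside 6.51% of all named genes, and Sdc1 overlapped. Prdm1 lay apart on the higher side, as did 17.0% of all named genes, with 145, 144 and 267 in tumoricidal and 99.2 and 126.6 in control arrays. The part of these cells in any complement signal was not tested.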
